A study of Mus musculus with 32 samples.

Results

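Transcripts of 5 genes of cytosolic RNA sensing were followed in bone marrow-derived macrophages (BMDMs) after induced deletion of Trex1, which encodes a cytosolic DNA exonuclease. The genes were Rigi, Ifih1, Dhx58, Mavs and Eif2ak2, chosen by symbol as the RIG-I-like receptors, their adaptor and the RNA-binding kinase PKR, and each matched 1 of the 54281 gene identifiers of the count table. All 5 passed the filter on low counts, as did 15257 genes in total. BMDMs were grown from bone marrow over 6 days in medium with L929 supernatant, from mice that carried R26-CreERT2 and were either Trex1 FL/FL or Trex1 WT/FL. In FL/FL cells both Trex1 alleles are flanked by loxP sites, and WT/FL cells keep a wild-type allele. Cultures of each genotype received 2 µg/ml 4-hydroxytamoxifen (4-OHT) for 22 h, which activates the CreERT2 recombinase, or stayed untreated, and RNA was taken on days 1, 2, 3 and 4 after the exposure. Each of these 16 groups had 2 libraries, 32 in all. Every group carries R26-CreERT2, so 4-OHT-treated WT/FL cells also had active Cre that could remove their floxed allele. The labels name no age, animal or culture for a library, so the spread between 2 libraries, and every p-value built on it, may be technical.

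RIG-I, encoded by Rigi, and MDA5, encoded by Ifih1, are cytosolic helicases that bind viral RNA and pass the signal to MAVS on the outer mitochondrial membrane, from where kinases activate IRF3 and IRF7 and the type I interferon (IFN) genes. LGP2, encoded by Dhx58, is a related helicase without the signalling domains and modulates its relatives. PKR, encoded by Eif2ak2, is activated by RNA duplexes and phosphorylates eIF2α, which halts translation. Rigi, Ifih1, Dhx58 and Eif2ak2 are known as IFN-stimulated genes, which raises the amount of sensor in macrophages that have met IFN.

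In the authors' genome build, GRCm39, Rigi (ENSMUSG00000040296.15) lies on the minus strand at chr4:40203772-40239852, Ifih1 (ENSMUSG00000026896.14) on the minus strand at chr2:62425714-62476607 and Dhx58 (ENSMUSG00000017830.15) on the minus strand at chr11:100585710-100595097. Mavs (ENSMUSG00000037523.13) lies on the plus strand at chr2:131075442-131096740 and Eif2ak2 (ENSMUSG00000024079.4) on the minus strand at chr17:79159972-79190012. Promoter sequence of 4 of the 5 genes, all except Dhx58, was found in a RefSeq table of GRCm38.p6, which is an older build than that of the counts, and covered 250 bases before to 50 bases after the annotated start. The windows were searched on both strands for GAAANNGAAA, the core of the IFN-stimulated response element found at many IFN-inducible genes. The stretches that hold it are shown because the members that have it are among those that rose together, with the match in capitals, read 5′ to 3′ along the gene's strand.
Ifih1, chr2:62646206-62646235: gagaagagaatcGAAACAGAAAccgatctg
Rigi, chr4:40239804-40239833: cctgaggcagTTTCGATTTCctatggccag
Eif2ak2, chr17:78882535-78882564: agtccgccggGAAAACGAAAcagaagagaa

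The core was present in Ifih1 at bases 33 to 42, counted from 1 at the annotated start, in Rigi on the opposite strand at bases 3 to 12, and in Eif2ak2 at bases 19 to 28. The Mavs window held no match. Of all 32851 promoter windows in the table, 1131 or 3.44% held the core. All 3 matches lay after the annotated start, and none of the 4 genes had one in the 250 bases before it, where 2.98% of promoters did. The same letters with a single base between the half-sites, GAAANGAAA, a search added after the first result was seen, were found in 3.17% of windows and in Rigi alone of the 4 genes, at -60 to -52 from the start.
Rigi, chr4:40239867-40239896: gtctaggttcaGAAACGAAActggatcccc

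A second planned motif, GAS (TTCNNNGAA), was found in 8.3% of the windows. Of the 4 genes only Eif2ak2 held it, at -178 to -170 from the start. A match describes letters in the window and was not linked to binding here.

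The libraries held 35120505 to 63760884 estimated counts (median 44841991), and the 2 libraries of any group differed beyond counting noise (chi-square per degree of freedom of 9.58 to 51.8). Levels are given as CPM, the usual scaling of counts to library size, here after TMM normalisation. Deletion was visible in the transcripts, which do not give the level of the protein. By Western blot the study still found much TREX1 protein on day 2 and could not detect it on day 4. Trex1 was at 0 counts in both 4-OHT-treated FL/FL libraries on days 1, 3 and 4 and at 9 and 14 counts on day 2, against 758 to 3622 counts in the 4-OHT-treated WT/FL libraries. Macrophage markers summed to 14974 to 46919 CPM over the libraries, granulocyte precursor markers to at most 14.3 CPM, and markers of dendritic cells, B cells, T and NK cells, fibroblasts, mast cells and basophils to at most 2.67 CPM each. Ncr1, Mcpt8 and Fcer1a were at 0 in all 32 libraries. In such bulk RNA, fewer cells of a kind and less RNA per cell cannot be told apart.

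Rigi, Ifih1, Dhx58 and Eif2ak2 behaved as a set. They were low on day 1 in all cultures, were several-fold higher on day 2 with or without 4-OHT, and reached their highest levels in the 4-OHT-treated FL/FL libraries on days 2 to 4. In the other 3 kinds of culture the 4 transcripts fell again between days 3 and 4, whereas no such fall passed the test in 4-OHT-treated FL/FL cells. Of the 4, Eif2ak2 had already fallen in 4-OHT-treated FL/FL cells between days 2 and 3, by 0.30 on the log2 scale. For this gene the growth of the genotype difference from day 3 to day 4 did not pass. Mavs, the adaptor, rose modestly from day 1 to day 2 in all cultures. On no day did it pass as higher in 4-OHT-treated FL/FL than in 4-OHT-treated WT/FL cells.

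**Figure D1:**
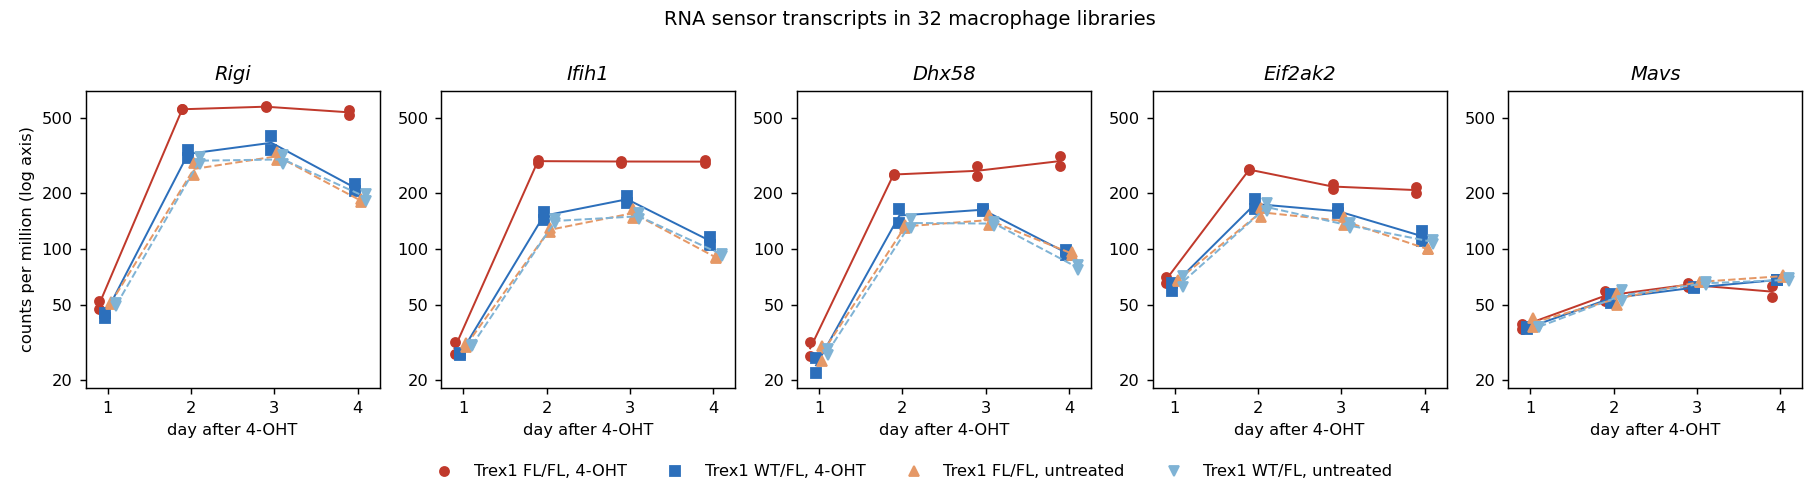
CPM on a log axis against the day after 4-OHT for each of the 5 genes. Each point is 1 library, 2 per genotype, treatment and day, lines join the group means, and colours mark genotype and treatment. From day 2 on, both red points (Trex1 FL/FL with 4-OHT) sit above every other library of that day for Rigi, Ifih1, Dhx58 and Eif2ak2, while the Mavs points of all 4 arms lie between 37.3 and 72.3 CPM.

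The first question was how the sensors differed between genotypes once Cre had been activated. On day 1 Rigi stood at 52.8 and 47.6 CPM in FL/FL and at 45.6 and 42.9 CPM in WT/FL cells after 4-OHT. On day 2 it stood at 559 and 557 CPM against 339.9 and 305 CPM, and on day 3 at 580.0 and 573 CPM against 339 and 400.3 CPM. On day 4 the FL/FL libraries held 521 and 554 CPM and the WT/FL libraries 204 and 221 CPM. The genotypes did not overlap on any day, and the gap on day 4 came with lower WT/FL values than on day 3. The FL/FL values stayed at 521 CPM or more. Separation of 2 libraries from 2 carries little weight, for Rigi and the genes below. An exact permutation test of them cannot go below 0.33, and the share of all genes that separated was not counted. The log2 fold change of Rigi was 0.18 on day 1 (SE 0.084, adjusted p = 1, unadjusted p = 0.0394, edgeR quasi-likelihood F test, Benjamini-Hochberg adjusted over all 15257 genes, as for every adjusted p here). It was 0.79 on day 2 (SE 0.081, edgeR adjusted p = 7.65e-08), 0.64 on day 3 (SE 0.0807, adjusted p = 1.77e-06) and 1.34 on day 4 (SE 0.082, adjusted p = 1.35e-12).

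Ifih1, the sensor of long RNA duplexes, was at 31.7 and 27.3 CPM in FL/FL and 27.9 and 27.1 CPM in WT/FL cells on day 1 after 4-OHT, where the libraries overlapped. It was at 299.9 and 289.7 CPM against 157 and 144 CPM on day 2 and at 297 and 289.9 CPM against 177 and 192 CPM on day 3. On day 4 it was at 288 and 298 CPM against 104 and 116 CPM. All 6 FL/FL libraries of days 2 to 4 thus lay between 288 and 299.9 CPM, and the WT/FL libraries moved below it. The log2 fold change was 0.10 on day 1 (edgeR adjusted p = 1) and 0.97 (SE 0.0673, edgeR adjusted p = 1.00e-10), 0.67 (SE 0.0669, adjusted p = 3.47e-08) and 1.41 (SE 0.0682, adjusted p = 1.08e-14) on days 2, 3 and 4.

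Dhx58, the helicase without signalling domains, was at 31.9 and 26.9 CPM in FL/FL and 26.0 and 21.7 CPM in WT/FL cells on day 1. On day 2 it was at 251 and 249 CPM against 163 and 138 CPM, on day 3 at 278 and 245 CPM against 159.7 and 164 CPM, and on day 4 at 313 and 277 CPM against 92.7 and 98.4 CPM. The genotypes overlapped on no day, day 1 included, where the difference did not pass the test. Its log2 fold change on day 4, 1.63 (SE 0.103, edgeR adjusted p = 2.58e-11), was the only one of the 5 genes above 1.5, the fold threshold of the study. On days 1 to 3 it was 0.30 (SE 0.108, adjusted p = 1, unadjusted p = 0.0101), 0.73 (SE 0.101, adjusted p = 1.45e-05) and 0.69 (SE 0.1, adjusted p = 2.64e-05).

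Eif2ak2, the kinase that halts translation, changed less than the helicases. On day 1 it was at 71.0 and 65.6 CPM in FL/FL and 65.9 and 59.7 CPM in WT/FL cells, followed on day 2 by 264 and 268 CPM against 185 and 163 CPM. On day 3 it was at 209.6 and 222 CPM against 155 and 163 CPM and on day 4 at 198 and 214 CPM against 109.6 and 125 CPM. The libraries overlapped on day 1 and did not from day 2 on. The log2 fold change was 0.12 on day 1 (edgeR adjusted p = 1), 0.61 on day 2 (SE 0.079, edgeR adjusted p = 2.29e-06), 0.44 on day 3 (SE 0.079, adjusted p = 0.000173) and 0.82 on day 4 (SE 0.0797, adjusted p = 5.80e-09). Gpatch11 overlaps Eif2ak2 on the other strand and was at 9.78 to 18.7 CPM, and Dhx58os overlaps Dhx58 and was at 0 to 3 counts in every library. Gm26637 and Gm55596 also overlap Eif2ak2, Gm72653 overlaps Dhx58 and Gm75131 overlaps Mavs, and their levels are not given here. Of other genes, Gm26637 held the most 31-base stretches that also occur in Eif2ak2 transcripts. Whether the counting used strand is not given in the sources used here.

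Mavs, which encodes the adaptor of RIG-I and MDA5, was at 39.9 and 37.4 CPM in FL/FL and 38.3 and 37.3 CPM in WT/FL cells on day 1 after 4-OHT. On day 2 it reached 59.4 and 52.9 CPM against 57.8 and 51.1 CPM. It was at 62.9 and 65.9 CPM against 62.2 and 62.0 CPM on day 3 and at 55.0 and 63.3 CPM against 68.5 and 68.0 CPM on day 4. Both FL/FL libraries were above both WT/FL libraries on day 3 and below both on day 4, and the genotypes overlapped on days 1 and 2. The log2 difference on days 1 to 4 was 0.03 (95% interval -0.13 to 0.19), 0.05 (-0.11 to 0.21), 0.05 (-0.11 to 0.21) and -0.21 (-0.37 to -0.05, edgeR adjusted p = 0.0449 on day 4). None passed at an adjusted p below 0.01.

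Counted over the 5 genes, 0 rose on day 1, when 0.00655% of all genes tested rose, which is 1 gene. The unadjusted p was below 0.05 for 308 genes that day. On days 2, 3 and 4 the number was 4 each time, against 5.69%, 6.69% and 9.84% of all genes. With the fold threshold added, 0, 0 and 1 of the 5 genes were called higher, against 0.498%, 0.485% and 1.65%. The median log2 fold change of the 5 genes was 0.73, 0.64 and 1.34 on days 2, 3 and 4, and that of all genes -0.01, -0.01 and -0.04.

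The markers of proliferating cells (Mki67, Top2a, Cdk1, Ccnb1 and Birc5) moved with the day 4 result. Their sum was 31.4 to 32.3 CPM in 4-OHT-treated FL/FL and 127 to 132 CPM in 4-OHT-treated WT/FL libraries. All 5 fell between the genotypes, against 11.7% of all genes. On day 2 the sums were also apart, at 681 to 739.8 CPM in FL/FL and 877 to 926 CPM in WT/FL libraries. Of the 5 markers, 1 fell that day, against 2.48% of all genes. On day 3 the sums overlapped at 68.8 to 78.2 CPM and 70.5 to 77.9 CPM. The part of proliferation in the sensor levels was not tested. The summed CPM of the macrophage markers (6 genes) was lower in 4-OHT-treated FL/FL than in WT/FL libraries on days 2 to 4 as well. The sums were 25525 to 27479 against 31380.3 to 33459 CPM on day 2, 37277 to 37803 against 44603 to 46919 CPM on day 3 and 27426 to 29396 against 29979.5 to 30774 CPM on day 4. Of the 6 markers, 1, 3 and 2 fell on these days, against 2.48%, 5.42% and 11.7% of all genes. On day 3, 1 of them rose, against 6.69% of all genes. Their median log2 fold change was -0.04, -0.20 and -0.07, and 3 of the 6 lay above 0 on day 2. The part of these markers in the sensor levels was not tested either.

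**Figure D2:**
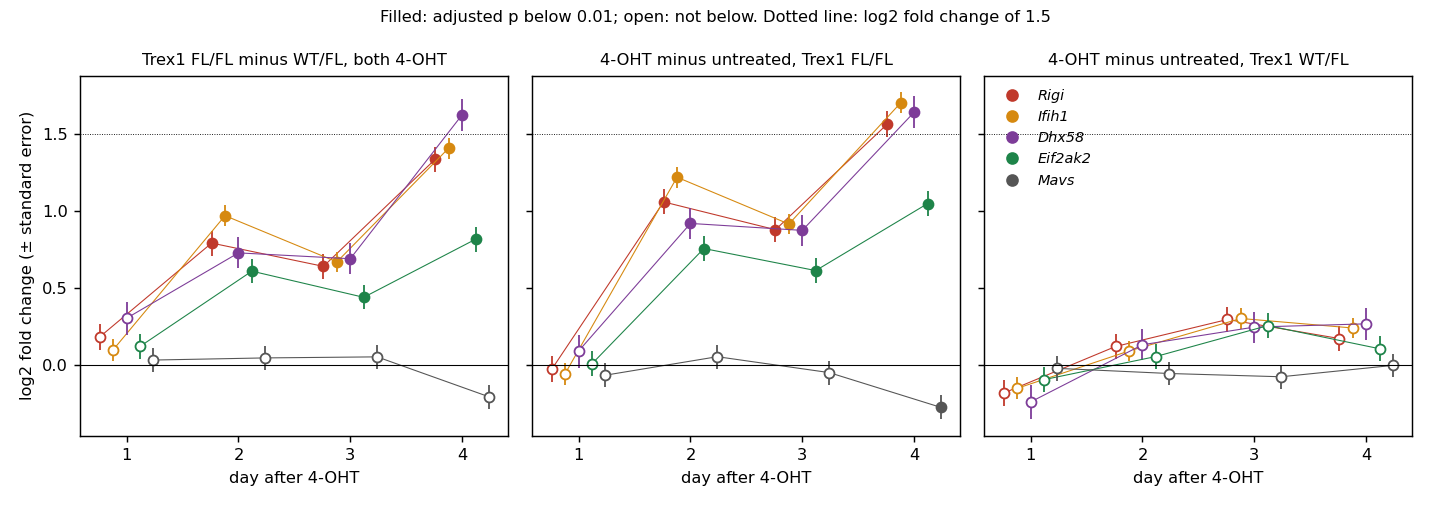
Log2 fold change with its standard error for each gene against the day, in 3 comparisons. Filled points have an adjusted p below 0.01, and the dotted line marks a log2 fold change of 1.5. Rigi, Ifih1, Dhx58 and Eif2ak2 are filled on days 2 to 4 in the left and middle panels, and no point is filled in the right panel, where 4-OHT was given to WT/FL cells.

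Untreated cells of the same genotype served as a second control. In untreated FL/FL cells Rigi stood at 287 and 249 CPM on day 2, 329 and 297 CPM on day 3 and 186 and 177 CPM on day 4, all below the 4-OHT-treated libraries of the day. Between 4-OHT-treated and untreated FL/FL cells 0 of the 5 genes rose on day 1, with 0% of all genes, and 4 rose on each of days 2, 3 and 4, with 7.49%, 8.12% and 10.2% of all genes. This comparison shares its treated libraries with the comparison of genotypes and is not independent of it. The log2 fold changes on day 2 were 1.06 for Rigi (SE 0.0814), 1.22 for Ifih1 (SE 0.0678), 0.92 for Dhx58 (SE 0.101) and 0.76 for Eif2ak2 (SE 0.0793). On day 3 they were 0.88, 0.92, 0.88 and 0.61 in the same order of genes. On day 4 they were 1.57 for Rigi (SE 0.0827), 1.70 for Ifih1 (SE 0.069), 1.64 for Dhx58 (SE 0.103) and 1.05 for Eif2ak2 (SE 0.0804), so that 3 genes exceeded the fold threshold, against 1.79% of all genes.

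Mavs went the other way on day 4. It stood at 71.0 and 72.3 CPM in untreated FL/FL cells, above both treated libraries, and fell by 0.28 on the log2 scale with 4-OHT (SE 0.0781, edgeR adjusted p = 0.00759). The fall held in 1 of the 4 fits that left out a library, with a log2 change of -0.38 without the second of the treated libraries, and was not past the test in the other 3, where it was between -0.18 and -0.29. On that day 11.2% of all genes fell in this comparison. On days 1 to 3 its log2 difference lay between -0.07 and 0.05 and did not pass.

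4-OHT given to WT/FL cells, which keep a wild-type Trex1 allele, moved no sensor past the test. These cells did not keep their full Trex1 level, which was lower in the treated than in the untreated libraries on every day. On day 3 Trex1 was at 68.9 and 79.4 CPM in treated and at 129 and 141 CPM in untreated WT/FL libraries. The part of this lower level in the sensor levels was not tested. In WT/FL cells 0 of the 5 genes rose on days 1, 2, 3 and 4, and of all genes 0%, 0%, 0.0393% and 0.0524% rose. Day 3 came nearest. The treated WT/FL libraries of that day lay above both untreated ones for Rigi, Ifih1, Dhx58 and Eif2ak2, with log2 differences of 0.30 (95% interval 0.13 to 0.46, edgeR adjusted p = 0.125), 0.30 (0.16 to 0.44, adjusted p = 0.0283), 0.25 (0.04 to 0.46, adjusted p = 0.453) and 0.26 (0.09 to 0.42, adjusted p = 0.207). With no filter on low counts 2 genes passed on this day and with DESeq2 1. On day 4 the differences were 0.17, 0.24, 0.27 and 0.11, and on day 1 they were -0.18, -0.15, -0.24 and -0.10, none past the test.

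Without 4-OHT no difference between the genotypes passed the test. None of the 5 genes passed on days 1, 2, 3 and 4, when 0%, 0%, 0% and 0.0131% of all genes were higher in FL/FL cells. The log2 differences of the 20 comparisons of a gene and day lay between -0.16 for Ifih1 on day 2 (95% interval -0.30 to -0.02, edgeR adjusted p = 1) and 0.25 for Dhx58 on day 4 (0.04 to 0.46, adjusted p = 0.217).

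The interaction tests whether the response to 4-OHT itself differed between FL/FL and WT/FL cells, using all 8 libraries of a day. It rose for 0 of the 5 genes on day 1, then 4, 3 and 4 on the following days, against 0%, 3.55%, 2.65% and 5.15% of all genes. On day 2 it was 0.94 for Rigi (edgeR adjusted p = 3.54e-06), 1.13 for Ifih1 (1.21e-08), 0.79 for Dhx58 (0.000701) and 0.70 for Eif2ak2 (9.41e-05). On day 3 Rigi, Ifih1 and Dhx58 were at 0.58, 0.61 and 0.63, and Eif2ak2, at 0.36, did not pass (SE 0.112, adjusted p = 0.0438). The count of 3 on day 3 became 1 without the first 4-OHT-treated WT/FL library, the second untreated FL/FL library or the second untreated WT/FL library. On day 4 the interaction was 1.39 for Rigi, 1.46 for Ifih1, 1.38 for Dhx58 and 0.94 for Eif2ak2, with adjusted p of 1.39e-09, 1.84e-11, 2.86e-07 and 5.57e-07. For Mavs it was -0.27 on day 4 (95% interval -0.50 to -0.05, edgeR adjusted p = 0.0961).

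For each of the 5 genes the step from day 1 to day 2 was larger than the genotype difference after 4-OHT on any day. Between days 1 and 2 all 5 genes rose in each of the 4 kinds of culture. Of all genes, 21.7% rose over this step in 4-OHT-treated FL/FL cells, 20.2% in 4-OHT-treated WT/FL cells, 20.3% in untreated FL/FL cells and 20.2% in untreated WT/FL cells. Rigi rose by 3.47 on the log2 scale (SE 0.0896) in 4-OHT-treated FL/FL cells and by 2.86 (SE 0.0874) in 4-OHT-treated WT/FL cells. In untreated FL/FL and WT/FL cells it rose by 2.39 (SE 0.0858) and 2.56 (SE 0.0868). Ifih1 rose by 3.32 after deletion of Trex1 and by 2.05 to 2.45 in the other cultures, Dhx58 by 3.09 and by 2.26 to 2.66, and Eif2ak2 by 1.96 and by 1.21 to 1.47. Mavs rose by 0.42 to 0.56 in the 4 kinds of culture. In each kind of culture the summed macrophage markers were higher and the summed markers of proliferating cells lower on day 2 than on day 1. In untreated WT/FL cells the macrophage sum went from 15419 to 16977 CPM on day 1 to 30590 to 32397 CPM on day 2. The proliferation sum there went from 1615 to 1718 CPM to 925 to 968 CPM. The part of these shifts in the step was not tested.

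Between days 2 and 3, 5 of the 20 steps of a gene in a kind of culture passed. Ifih1 rose by 0.29 in 4-OHT-treated WT/FL and by 0.30 in untreated FL/FL cells, Mavs rose by 0.30 in untreated FL/FL cells, and Eif2ak2 fell by 0.30 in 4-OHT-treated FL/FL and by 0.33 in untreated WT/FL cells. The other 15 steps did not pass. In the order 4-OHT-treated FL/FL, 4-OHT-treated WT/FL, untreated FL/FL and untreated WT/FL, 0, 1, 2 and 0 of the 5 genes rose, against 15.1%, 17.7%, 18.7% and 17.1% of all genes, and 1, 0, 0 and 1 fell, against 18%, 18.6%, 18.2% and 17.8%.

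Between days 3 and 4 Rigi, Ifih1, Dhx58 and Eif2ak2 fell in 4-OHT-treated WT/FL, untreated FL/FL and untreated WT/FL cells, that is 4 of the 5 genes in each, against 5.93%, 7.18% and 6.39% of all genes. The fall was 0.67 to 0.80 on the log2 scale for Rigi, 0.68 to 0.79 for Ifih1, 0.59 to 0.78 for Dhx58 and 0.29 to 0.50 for Eif2ak2. In 4-OHT-treated FL/FL cells 0 of the 5 genes fell, against 5.7% of all genes. There the log2 changes were -0.10 for Rigi (95% interval -0.27 to 0.07), 0.00 for Ifih1 (-0.14 to 0.13), 0.17 for Dhx58 (-0.03 to 0.38) and -0.06 for Eif2ak2 (-0.23 to 0.10).

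**Figure D3:**
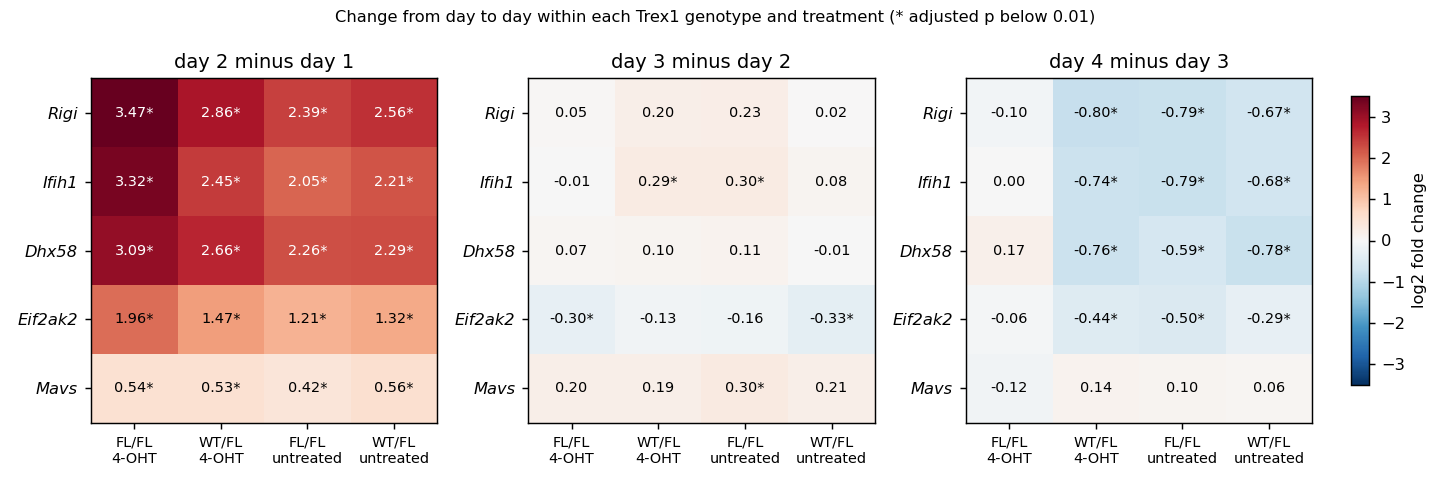
Log2 fold change from one day to the next for each gene (rows) in each genotype and treatment (columns), coloured from blue (lower) to red (higher), with an asterisk for an adjusted p below 0.01. All 20 cells are starred in the left panel, and in the right panel 12 cells of the 3 control cultures are starred blue while the FL/FL 4-OHT column holds no asterisk.

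The growth of the genotype difference was tested as well. From day 1 to day 2 the difference between 4-OHT-treated genotypes rose for 3 of the 5 genes, by 0.61 for Rigi (edgeR adjusted p = 0.00125), 0.87 for Ifih1 (1.71e-06) and 0.49 for Eif2ak2 (0.00711), against 2.67% of all genes. Dhx58, at 0.42, did not pass (SE 0.147, edgeR adjusted p = 0.116). The count of 3 became 1 without the second day 1 library of FL/FL cells, the first day 1 library of WT/FL cells or the second day 2 library of WT/FL cells. From day 2 to day 3 it rose for 0 of the 5 genes, against 0.328% of all genes. From day 3 to day 4 it rose again for 3 genes, by 0.70 for Rigi (edgeR adjusted p = 0.000169), 0.74 for Ifih1 (6.15e-06) and 0.94 for Dhx58 (0.00012), against 1.67% of all genes. Eif2ak2, at 0.38, did not pass (adjusted p = 0.0372), and Mavs was at -0.26 (adjusted p = 0.185).

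Levels of different genes were compared per kilobase of exon. On day 4 in 4-OHT-treated FL/FL cells Dhx58 had the highest level at 87.5 ± 7.68 CPM per kilobase (SD, n = 2), followed by Rigi at 63.7 ± 2.75, Eif2ak2 at 38.0 ± 2.06, Ifih1 at 32.6 ± 0.764 and Mavs at 5.20 ± 0.511. Neighbours in this order did not overlap, but the order of Eif2ak2 and Ifih1 turned when the longest transcript was taken as the length, with 47.3 for Eif2ak2 and 49.2 for Ifih1. In 4-OHT-treated WT/FL cells on that day Dhx58 was at 28.3 ± 1.20 CPM per kilobase and Rigi at 25.2 ± 1.43, Eif2ak2 at 21.6 ± 1.96, Ifih1 at 12.3 ± 0.909 and Mavs at 6.00 ± 0.0275. With the longest transcript the order of Dhx58 and Rigi turned there, with 38.7 for Dhx58 and 42.5 for Rigi. Every level of day 4 changed by more than its SD with that length, such as Dhx58 from 87.5 to 120 CPM per kilobase in 4-OHT-treated FL/FL cells. On day 1 Eif2ak2 led in 4-OHT-treated FL/FL cells at 12.6 ± 0.701 CPM per kilobase, above Dhx58 at 8.73 ± 1.05 and Rigi at 5.95 ± 0.439, while Mavs at 3.40 ± 0.154 and Ifih1 at 3.28 ± 0.346 overlapped. The longest transcript was not tried as the length for day 1, so the order there holds for the exon length only. Of 31-base words in the transcripts, 0.166% for Ifih1 to 8.73% for Eif2ak2 also occur in transcripts of other genes.

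As a description, the profiles over the 32 libraries were compared with those of 10759 other genes, by Pearson's r of log2 CPM. The libraries share the large step from day 1 to day 2, which raises r between genes that moved the same way over it. The profiles most like Rigi were those of Sp100 (r = 0.999), Zbp1 (0.998) and Trim30a (0.998), and those most like Ifih1 were Irgm2, Ifit2 and Gvin1 (each 0.998). Dhx58 was nearest to Ifit1 (0.997), Adar (0.996) and Mx2 (0.996), and Eif2ak2 to Parp12 (0.993), Lgals9 (0.992) and Cmpk2 (0.990). Mavs was nearest to Abca1 (0.972), Norad (0.972) and Rere (0.971). Among the 5 genes Rigi, Ifih1 and Dhx58 had r of 0.994 to 0.997 with each other and of 0.968 to 0.970 with Eif2ak2, and Mavs had r of 0.630 to 0.782 with the others.

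The neighbouring parts of the pathway were described by hand-made lists in the comparison of 4-OHT-treated genotypes. On day 1, 0 genes passed in any of them. The counts of each list stand beside 5.69%, 6.69% and 9.84% of all genes that rose on days 2, 3 and 4, and 2.48%, 5.42% and 11.7% that fell. Of 10 co-factors and ubiquitin ligases that help the RIG-I-like receptors, 4 rose on each of days 2, 3 and 4, and 0, 0 and 1 fell. The 4 that rose on day 4 were Ddx60 (log2 fold change 1.64), a helicase linked to RIG-I signalling, Rnf135 (0.75) and Trim25 (0.68), ubiquitin ligases that act on RIG-I, and Zc3hav1 (0.52), the zinc finger antiviral protein. Prkra, which encodes the PKR activator PACT, fell by 0.37 on that day. The median of the list was 0.14, 0.13 and 0.12 on days 2, 3 and 4.

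Of 18 genes that carry the signal from MAVS to the nucleus, 4 rose and 0 fell on day 2, 3 rose and 1 fell on day 3, and 5 rose and 2 fell on day 4, when 9.84% and 11.7% of all genes did, with a median of 0.10, 0.01 and 0.08. Irf7, the IFN-inducible transcription factor of the pathway, rose by 1.61, 1.31 and 2.38 on days 2 to 4. On day 4 Azi2 (0.72) and Tank (0.47), adaptors of the kinase TBK1, rose and Ikbkg, which encodes NEMO, fell by 0.74. Irf3, at -0.06 on day 4 (edgeR adjusted p = 0.719), did not pass on any day.

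Among 19 inhibitors of RIG-I-like receptors and MAVS, 1 rose and 0 fell on day 2, 2 rose and 1 fell on day 3, and 1 rose and 4 fell on day 4, when 11.7% of all genes fell. The median was -0.04, -0.02 and -0.05. Nlrc5, also known as an activator of MHC class I genes, rose on each of these days, by 0.90, 0.58 and 1.21. Ripk3 fell by 0.49, and Smurf1 and Itch, ubiquitin ligases that target MAVS, fell by 0.35 and 0.23 on day 4.

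Around PKR, 18 genes of its regulators and of eIF2α signalling were listed, of which 3 rose and 1 fell on day 2, 6 rose and 0 fell on day 3, and 5 rose and 3 fell on day 4, when 9.84% and 11.7% of all genes did. Ddit3, which encodes the stress factor CHOP, rose by 1.21, 1.81 and 1.72, and Atf4, the factor translated when eIF2α is phosphorylated, by 0.42, 0.99 and 0.49. Adar, which edits RNA duplexes and so limits their detection, rose by 0.50, 0.48 and 1.02. Eif2ak3, which encodes the eIF2α kinase PERK, fell by 0.87 on day 4. The median of the list was 0.03, 0.08 and 0.05.

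Of 18 other RNA sensors and effectors, 9 rose on each of days 2, 3 and 4, and 1, 1 and 2 fell, with a median of 0.18, 0.20 and 0.28. On day 4 Ifit3 rose by 2.93 and Ifit1 by 2.71, members of a family of which Ifit1 binds foreign 5′ ends of RNA, Zbp1, a sensor of Z-form nucleic acid, by 2.45 and Oas3, which makes the messenger that activates RNase L, by 2.19. The endosomal receptors Tlr3, Tlr7 and Tlr13 rose by 1.46, 0.88 and 0.58 on that day, and the helicases Ddx3x and Dhx33 fell by 0.46 and 0.43. Tlr3, Tlr7, Tlr13, Ddx3x and Dhx33 stand outside the rule for examples and were picked with their values known. Ifit and Oas genes have close paralogs, between which the counting may split reads.

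In IFN signalling, 3 of 8 genes rose on day 2, 2 rose and 1 fell on day 3, and 4 rose and 2 fell on day 4. Stat2 rose by 1.03, 1.02 and 1.99 on days 2, 3 and 4, and Irf9 rose by 0.26 on day 4. Ifnar1, a subunit of the type I IFN receptor, fell by 0.37 on day 4. Ifnb1 itself was close to the limit of counting, with 12 and 14 counts in 4-OHT-treated FL/FL and 0 and 0 counts in WT/FL libraries on day 4, and 12 to 18 against 3 to 6 counts on day 2. With the WT/FL libraries set at a floor of 3 counts each, the observed FL/FL mean of Ifnb1 was 6.55-fold higher on day 4. This bound allows for counting error in the WT/FL libraries only, and not for that in the FL/FL libraries. The median of this list was 0.25, 0.18 and 0.26, the last also with Ifnb1 at that bound. Of the DNA sensing pair, Cgas rose by 0.49 on day 2 and 0.92 on day 4, and Sting1, at 0.19 on day 4 (edgeR adjusted p = 0.135), did not pass.

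**Figure D4:**
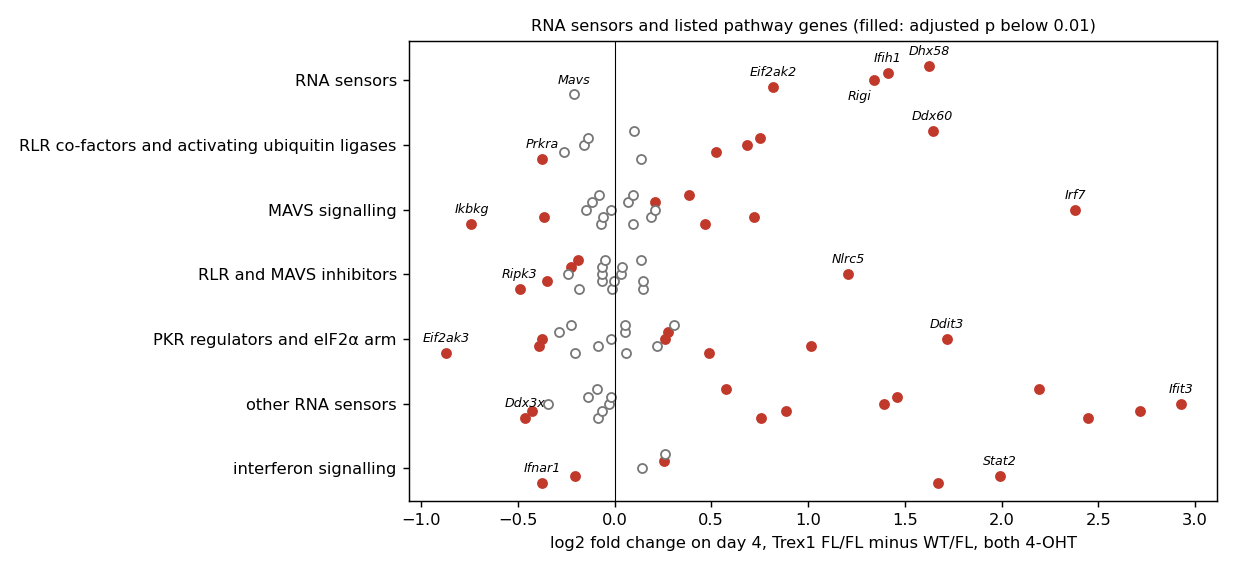
Log2 fold change on day 4 between 4-OHT-treated FL/FL and WT/FL cells for the 5 genes and the listed pathway genes, 1 point per gene, filled where the adjusted p was below 0.01, with the end points of each list named. Ifnb1 and Rnf125 are left out because both WT/FL libraries of day 4 held 0 counts. Points to the right of 1 are Rigi, Ifih1 and Dhx58 and genes such as Ddx60, Irf7, Nlrc5, Ddit3, Ifit3 and Stat2, and Mavs lies at -0.21.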

How the data were processed

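RNA of BMDMs was sequenced in 32 libraries of 16 groups. Salmon and tximport were used by the authors, with GRCm39 as the reference, to obtain gene-level estimated counts, which were deposited unnormalized and as whole numbers. The submitters' processing notes also name FastQC and DESeq2 1.32. Columns were assigned to samples by their labels. Of 54281 identifiers, 51048 matched GENCODE vM39, and the rest held 0.32% of the counts.

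Differences were tested in R 4.3.3 with edgeR 4.0.16 (glmQLFit and glmQLFTest, robust, TMM factors, minimum count 10, 16 group means, 16 residual degrees of freedom). A gene rose or fell where the adjusted p (Benjamini-Hochberg) was below 0.01, and was called where its absolute log2 fold change was also above 1.5. The common biological coefficient of variation was 0.0912. The test was also run on simulated data, drawn as independent libraries without the changes between days seen here. It therefore cannot show how the test fares where the libraries of a group are technical replicates. An exact permutation test of 2 libraries against 2 cannot go below 0.33. The alternatives were other scalings and filters, DESeq2 1.42.0, smaller fits, other controls and leaving out each library, and a block of title runs added later. The 5 genes, the lists and the tests were chosen with earlier results of these data known. Examples were up to 4 genes per list with the largest absolute log2 fold change on day 4 among those that passed, beside Ifnb1, Stat2, Irf9, Irf7, Cgas, Sting1, Adar, Prkra and Mki67, and the 3 genes most like each sensor. The fold threshold follows the study's methods. Protein and PCR experiments of the study were not analysed here, and 1 gene of the rule is not reported here.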

Additional observations from a re-analysis of the deposited data

Results flagged for a closer look

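In 17 results an effect differed between groups by a test of the difference itself. The response to 4-OHT was larger in FL/FL than in WT/FL cells on day 2 for Rigi (log2 difference of the responses 0.94), Ifih1 (1.13), Dhx58 (0.79) and Eif2ak2 (0.70), on day 3 for Rigi (0.58), Ifih1 (0.61) and Dhx58 (0.63), and on day 4 for Rigi (1.39), Ifih1 (1.46), Dhx58 (1.38) and Eif2ak2 (0.94). The genotype difference after 4-OHT was larger on day 2 than on day 1 for Rigi (0.61), Ifih1 (0.87) and Eif2ak2 (0.49), and larger on day 4 than on day 3 for Rigi (0.70), Ifih1 (0.74) and Dhx58 (0.94). The largest adjusted p among them was 0.00711 (edgeR), for Eif2ak2 from day 1 to day 2.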

How the results depend on the processing

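The number of genes that rose between 4-OHT-treated genotypes on days 2, 3 and 4 was 4 with other scalings, no filter, DESeq2, fits of 16 or 4 libraries and each library left out. With the fold threshold the counts were 0, 0 and 1 on these days. Eif2ak2 on day 3 did not pass as an interaction (0.36). For 4-OHT in WT/FL cells on day 3 the count of 0 became 2 with no filter and 1 with DESeq2. Small differences that passed nowhere changed sign. With untreated FL/FL cells as the control Rigi, Ifih1 and Mavs were at -0.028, -0.056 and -0.066 on day 1 and Mavs at -0.049 on day 3, and as an interaction Mavs was at -0.044 on day 1. Without single libraries Ifih1 ranged from -0.014 to 0.20 and Mavs from -0.017 to 0.077 on day 1, and Mavs from -0.041 to 0.13 on day 2. Leaving out libraries, added after the data were seen, moved the counts for the day 3 interaction and the day 1 to day 2 growth. The fall of Mavs in FL/FL cells on day 4 did not pass with fits of 16 (-0.27) or 4 libraries (-0.24), also added then. The causes were not tested. With no filter, the interaction on day 3 and the growth of the difference from day 1 to day 2 and from day 3 to day 4 counted 4 genes each in place of 3. The labels pair no libraries, but within a genotype the sample titles fall into 2 runs with 1 library of each group. Differences between the runs correlated across genes at r of -0.0078 to 0.14 over 28 pairs of groups in FL/FL and 0.024 to 0.12 in WT/FL cells, above 0.1 for 5 pairs in each. With these runs as a replicate block, added after the data were seen, the count for 4-OHT in WT/FL cells on day 3 became 1 and no other count of the 15 refitted moved. The genotype comparison itself cannot be blocked, since each run holds 1 genotype. Depth limited Ifnb1, at 0 to 20 counts, and not the 5 genes, which held 1173 counts or more in every library. Levels per kilobase on day 4 all changed by more than their SD with the longest transcript as the length.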

Other observations

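The level of Trex1 also varied with the day in cells that keep it. In untreated FL/FL cells it was at 31.6 ± 0.0129 CPM on day 1 (SD, n = 2), 111 ± 13.0 on day 2, 141 ± 4.50 on day 3 and 95.8 ± 7.83 on day 4. In untreated WT/FL cells the means on days 1 to 4 were 30.3, 119, 135 and 84.3 CPM, and in 4-OHT-treated WT/FL cells 13.6, 57.2, 74.2 and 48.4 CPM. In all 3 kinds of culture the mean was highest on day 3 and lower on day 4, which was not tested.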
